A study of Chromochloris zofingiensis with 6 samples.

Results

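A set of 170 nuclear gene IDs of the green microalga Chromochloris zofingiensis lay clearly higher in every library grown with levofloxacin than in every control library. They were chosen by their CPM in these same libraries among the 13919 IDs with prefixes Cz01 to Cz16 or Cz19, out of 15364 IDs counted in all. An ID was taken where its lowest value among the levofloxacin libraries was at least 1.5 times its highest value among the controls and its mean with levofloxacin was at least 10 CPM, which is counts per 1000000 reads assigned to genes. The libraries that chose the IDs also give their values, so the difference between the groups is described here without a test. Shares and medians over IDs are descriptions too, since IDs measured in the same libraries are not independent.

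The strain was ATCC 30412. All cultures were kept in darkness at 25 °C and 150 rpm with 30 g/L glucose for 15 days. Among the recorded conditions they differed in the antibiotic alone: the 3 control libraries had none and the 3 levofloxacin libraries had 10 mg/L. The comparison therefore covers 1 strain, 1 dose and 1 time, and the labels do not say whether the libraries of a group came from separate cultures. In bulk RNA, fewer cells of a state and less RNA per cell cannot be told apart.

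Levofloxacin is a fluoroquinolone that blocks bacterial DNA gyrase and topoisomerase IV. Green algae keep a gyrase of bacterial origin in their organelles, whose genomes are small, and most proteins of chloroplasts and mitochondria are encoded in the nucleus and imported. C. zofingiensis is grown for its storage lipids and for astaxanthin, a red ketocarotenoid. The files name genes by ID alone, with no descriptions. The functions of the 170 IDs are therefore not given, and only 2 IDs are printed: the one with the widest gap between the groups and the one with the most reads. The others are described by prefix, coding length and values. The prefixes Cz01 to Cz19 are read as chromosomes, after the species' published naming, which the files do not state.

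The libraries held 28482776 to 36223195 counts. The levofloxacin libraries lay within 1.2 times of each other in 95 of the 170 IDs (55.9%), and the control libraries in 20 (11.8%). Among the comparable IDs defined below these shares were larger, at 71.7% and 24.4%. None of the 170 had fewer than 37 counts in any library, or fewer than 213 in any levofloxacin library. Control libraries differed more among themselves than levofloxacin libraries: the median coefficient of variation over the 170 IDs was 23.6% in controls and 8.46% with levofloxacin. Among the 9089 other IDs of the same prefixes that reached the same mean level with levofloxacin, called comparable IDs, these medians were 15.7% and 6.62%.

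The gap between the groups was modest for most of the 170 IDs and wide for a few. The lowest levofloxacin value was 1.69 times the highest control value at the median, with quartiles of 1.57 and 1.92. It was at least 2 times in 32 IDs, at least 3 times in 7 and at least 5 times in 2. The ratio of mean CPM ran from 1.63 to 16.8, with a median of 2.38, and 36 IDs were under 2. The rule's limit of 1.5 fell within a continuous range. The 5 IDs just inside it had ratios up to 1.505, and the 5 just outside had ratios from 1.498. A further 133 IDs of these prefixes passed the ratio but not the level.

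**Figure D1:**
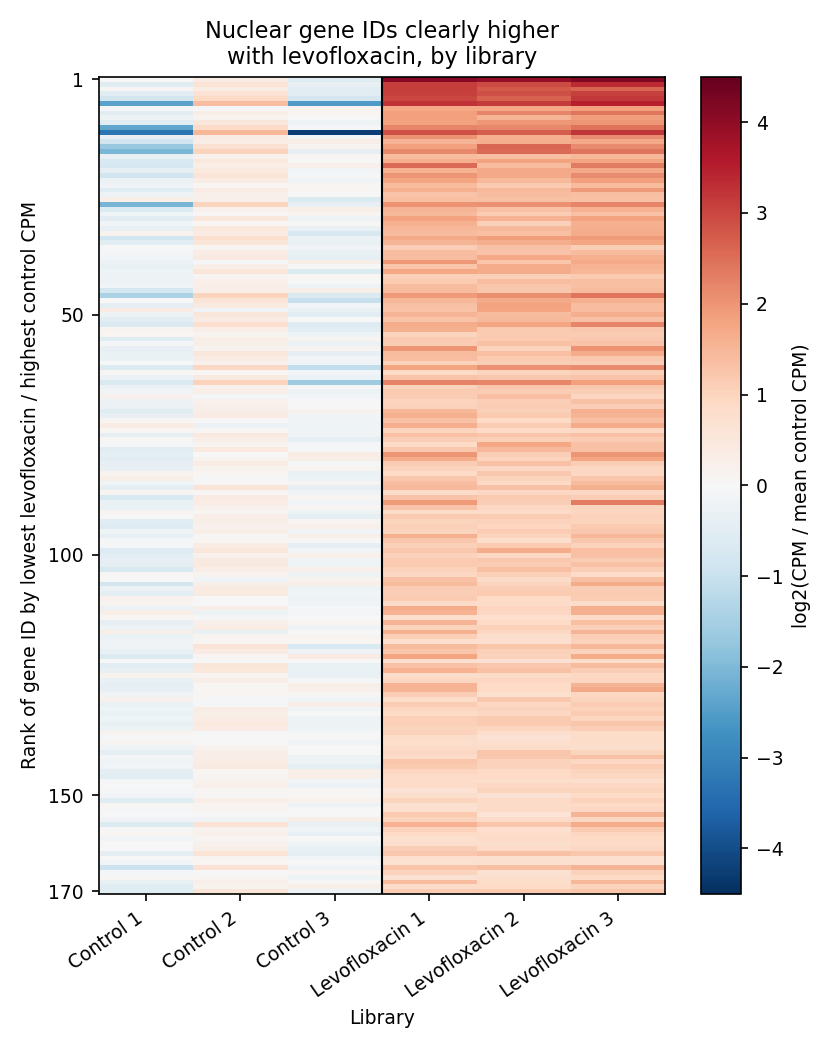
Each row is 1 of the 170 IDs, ranked from the widest gap (1) to the narrowest (170), and each column is a library; colour gives log2 of CPM over the mean control CPM. All levofloxacin columns are above 0, the median ID by 1.22 in the edgeR fit, and a few rows near the top show control replicate 2 well above control replicates 1 and 3.

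The widest gap belonged to Cz04g39120, whose coding sequence has 456 bases. It had 5.08, 6.38 and 3.44 CPM in the control libraries and 85.8, 76.3 and 88.6 CPM in the levofloxacin libraries, here and below in the order of replicates 1 to 3. The lowest levofloxacin library thus stood 12.0 times above the highest control, against 5.04 times for the next ID in rank. The edgeR log2 fold change was 4.03 ± 0.21 (SE, n = 3 per group). Per length, Cz04g39120 went from 10.9 FPKM in controls to 183 FPKM with levofloxacin (means, fragments per kilobase of coding sequence and 1000000 assigned reads), where the median of the 170 IDs with levofloxacin was 58.6 FPKM.

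The most reads belonged to Cz05g37140, with a coding length of 1152 bases. Its controls held 1134, 1143 and 890 CPM and its levofloxacin libraries 1736, 1904 and 1987 CPM. The groups did not overlap, but the gap was near the limit, at 1.52 times, and the edgeR log2 fold change was 0.78 ± 0.15 (SE, n = 3 per group). Without control replicate 3, the lowest of its controls, that fold change was 0.66. With control replicate 3 or any 1 levofloxacin library left out, edgeR no longer called Cz05g37140 higher at the threshold given below. Calls fell over the whole table in these fits, from 1432 of all tested IDs to 549 without control replicate 3. Without levofloxacin replicate 1, 2 or 3 they fell to 107, 477 and 102, and the fold change of Cz05g37140 was 0.84, 0.76 and 0.74.

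Among the 10 widest gaps were 3 adjacent IDs on Cz02 (ranks 2, 4 and 5), and with the ID that followed them they formed an unbroken series of 4. The first, with a coding length of 465 bases, had 6.11, 13.6 and 7.08 CPM in controls and 76.5, 68.5 and 91.3 CPM with levofloxacin. The second, of 300 bases, had 1.81, 5.99 and 1.92 CPM in controls and 26.0, 20.3 and 29.6 CPM with levofloxacin. The third, of 597 bases, had 7.64, 17 and 7.72 CPM in controls and 90.7, 79.9 and 92.1 CPM with levofloxacin. In these 3 IDs mean CPM was 7.81 to 8.83 times higher with levofloxacin. Control replicate 2 was above both other controls in each, as in 74.7% of the 170 IDs. Levofloxacin replicate 2 was below both other levofloxacin libraries, as in 52.9% of the 170. The fourth, of 1314 bases, was more abundant and differed by less: 23.2, 124 and 39.4 CPM in controls and 234, 266 and 328 CPM with levofloxacin. The IDs on either side of the series differed by less and in opposite directions, without overlap of the groups. The ID before it had a mean of 145 ± 12.6 CPM (SD, n = 3) in controls and 206 ± 7.22 CPM with levofloxacin, and the ID after it had 15.6 ± 0.908 and 12.2 ± 1.7 CPM.

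**Figure D2:**
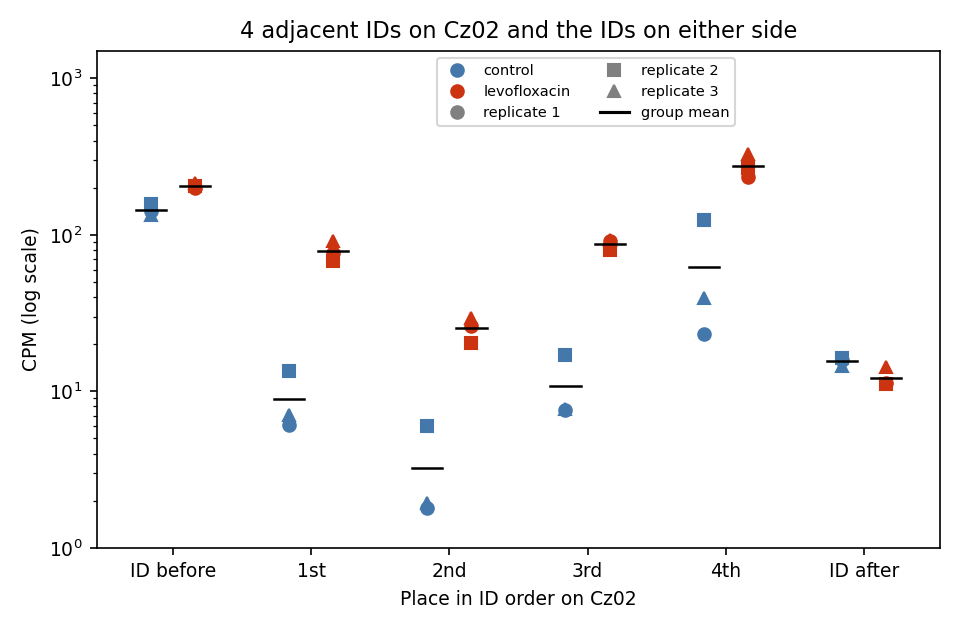
CPM in each library, on a log scale, for the 4 adjacent IDs on Cz02 and the ID on either side (blue, control; red, levofloxacin; marker shape, replicate; black line, group mean). The groups are apart at all 4 IDs, with control replicate 2 the highest control at each. At the flanking IDs they differ by less but do not overlap. Levofloxacin is higher at the ID before (199 to 213 against 133 to 158 CPM) and lower at the ID after (11.1 to 14.2 against 14.6 to 16.3 CPM).

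The other IDs among the 10 widest gaps lay on Cz03, Cz05, Cz10 and Cz13. On Cz05, an ID of 753 bases had 10.6, 12.8 and 7.08 CPM in controls and 87.8, 69.0 and 62.6 CPM with levofloxacin, 7.20 times as much on average. On Cz10 a pair of neighbours was among them. The first varied little within either group, with 15.1, 14.7 and 17.5 CPM in controls and 53.0, 53.2 and 56.8 CPM with levofloxacin. The second had 5.53, 7.23 and 6.61 CPM against 22.9, 18.4 and 23.6 CPM. Within both groups 12 of the 170 IDs varied by at most 1.2 times, a count not taken for comparable IDs. These 12 IDs lay under 8 prefixes and had ratios of mean CPM from 1.63 to 3.45. An ID of 1944 bases on Cz13 ranked eighth in gap. It had 45.6, 78.3 and 68.9 CPM in controls and 233, 292 and 341 CPM with levofloxacin.

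Control replicate 2 stood nearest to the levofloxacin libraries. It was the highest control in 127 of the 170 IDs (74.7%) and in 57.3% of comparable IDs. On TMM-scaled library sizes, which correct for differences in RNA composition, the shares were 57.1% and 37.1%. On the log2 scale and column totals control replicate 2 lay at a median of 28.9% of the way from the other controls to the levofloxacin mean. It was at 50% or more of the way in 18 IDs and below the mean of the other controls in 17. These positions were not taken for comparable IDs or on TMM-scaled sizes, which lower control replicate 2 against the other controls (factors 1.06 against 0.912 and 0.988). In 11 IDs control replicate 2 was at least 2 times as high as both other controls, also on column totals. The most extreme was an ID of 1389 bases on Cz08, with 2.05, 57.2 and 1.08 CPM in controls and 150, 134 and 187 CPM with levofloxacin. Control replicate 2 was 28 times the higher of the other controls there, and the levofloxacin libraries still lay above it. An ID of 690 bases on Cz03 had the same shape, with 1.33, 18.8 and 1.22 CPM in controls and 67.4, 62.3 and 80.8 CPM with levofloxacin. Since the rule compares with the highest control, control replicate 2 set the limit for most IDs. Without it 664 IDs met the rule, and without control replicate 1 or 3 the numbers were 203 and 200. Leaving out a control can only loosen the rule.

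The 170 IDs were also read from a model fitted to all genes of the same libraries. At an adjusted p under 0.05 (edgeR's quasi-likelihood test with Benjamini-Hochberg adjustment) 169 of the 170 IDs were called higher, where the background was 10.1% of all 14236 tested IDs and 12.0% of nuclear IDs at the same level. Because the same contrast chose the IDs, nothing is read from that count. Libraries of the groups did not overlap, with levofloxacin higher, in 22.6% of all tested IDs. The ID not called was the one on Cz08 described above, with a log2 fold change of 3.0 ± 1.2 (SE, n = 3 per group). The median edgeR log2 fold change was 1.22 over the 170 IDs and 0.00 over all tested IDs.

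Together the 170 IDs took 0.916%, 1.19% and 0.945% of the assigned reads in the controls and 2.20%, 2.23% and 2.36% with levofloxacin. Exact binomial 95% intervals reached at most 0.00539 percentage points to either side and cover counting error only. The group means were 1.02 ± 0.153% (SD, n = 3) and 2.26 ± 0.0812%, so the share was 2.22 times as large with levofloxacin. The 10 IDs with the highest mean CPM made up 47.2% of these reads in controls and 40.4% with levofloxacin. Without them the sum was 2.51 times as large.

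Levels per length ran from 2.24 to 2987 FPKM with levofloxacin. The highest belonged to an ID of 519 bases on Cz06 that was even within each group, with 921, 907 and 929 CPM in controls and 1562, 1465 and 1625 CPM with levofloxacin. The lowest belonged to an ID of 4980 bases on Cz10, with 2.59, 4.56 and 4.86 CPM in controls and 11.5, 9.91 and 12.0 CPM with levofloxacin. The per-library median of the 170 IDs was 21.2 ± 4.80 FPKM (SD, n = 3) in controls, under the 31.3 ± 3.32 FPKM of comparable IDs. With levofloxacin it was 60.2 ± 1.67 FPKM, above their 33.2 ± 0.413 FPKM. Both sets had the same minimum level with levofloxacin, and the rule's ratio applied to the 170 IDs alone, so this order is not read as a result.

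Within the levofloxacin group, replicate 3 was highest in 92 of the 170 IDs (54.1%) and in 27.9% of comparable IDs. Replicate 2 set a subset apart: in 30 IDs (17.6%) it was at most 0.8 times both other levofloxacin libraries, as in 5.75% of comparable IDs. On TMM-scaled library sizes these shares were 15.3% and 4.61%. Among them was an ID of 1791 bases on Cz16, which ranked 19 in gap, with 10.8, 22.3 and 21.6 CPM in controls and 106, 48.8 and 91.7 CPM with levofloxacin. Of the 30 IDs, 9 were next to another of the 170. Control replicate 2 was highest in 14 of the 30 and control replicate 3 in 12. In the 136 IDs with levofloxacin replicate 2 neither low nor high, control replicate 2 was highest in 110 and control replicate 3 in 12. These orders of the controls are on column totals and were not taken on TMM-scaled sizes.

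The 170 IDs were found under each of the 17 prefixes, at different rates. Cz14 held 17, which was 3.88% of its comparable IDs and members together, and Cz19 held 1 (0.571%). The share was 1.84% over all 17 prefixes and between 1.18% and 2.73% on the other 15. On Cz14, 9 of the 17 lay in 4 series of adjacent IDs, so they are not independent in place. By the mirrored rule, 7 of all 663 IDs on Cz14 lay clearly lower, and 266 of the 13919 IDs of the 17 prefixes. That rule asks for a highest levofloxacin value at most 1/1.5 of the lowest control. The mean control level must be at least 10 CPM. Outside the rule's prefixes, the same ratio and level were met by 5 of 166 IDs at that level on Cz17 (3.01%), 7 of 152 on Cz18 (4.61%), 12 of 335 on unplaced sequence (3.58%) and 2 of 9 mitochondrial IDs (22.2%). Of 73 chloroplast IDs 0 reached that level.

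**Figure D3:**
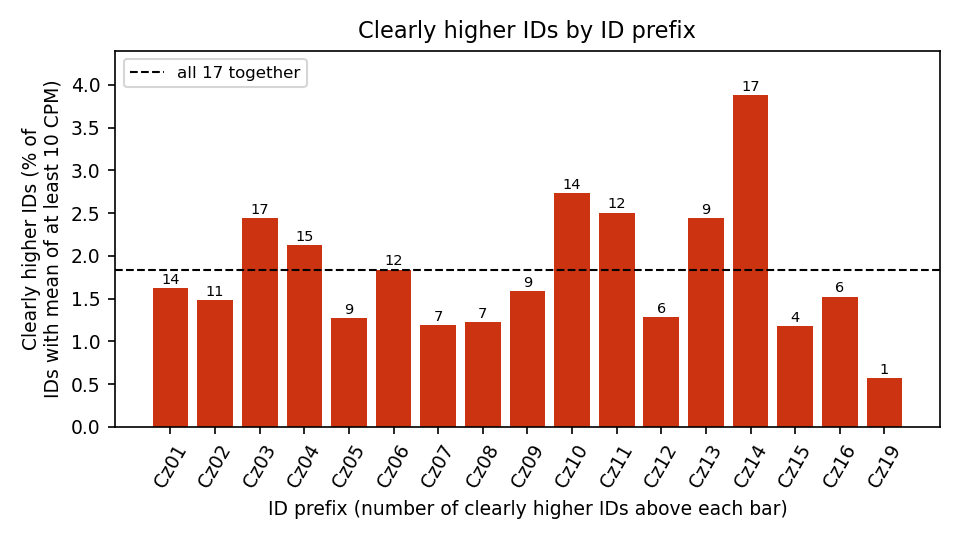
Bars give the clearly higher IDs as a percent of all IDs of that prefix whose mean with levofloxacin was 10 CPM or more; the number above each bar is their count and the dashed line is the share over all prefixes shown (1.84%). Cz14 has the tallest bar (3.88%) and Cz19 the lowest (0.571%).

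Some of the 170 IDs lay side by side. Another of them was the next ID on either side in 30 (17.6%), and in 2.31% of comparable IDs. These 30 formed 13 series of consecutive ID numbers, 10 of them pairs, 2 of them triplets and 1 the series of 4 on Cz02. Most series did not share the order of libraries among their IDs. The full order of the controls was the same in 6 of the 13 series, that of the levofloxacin libraries in 4, and both in 2. Counting IDs up to 2 places away left the number with another of the 170 nearby at 30. Because no strand setting is stated for the counting, reads of overlapping or antisense neighbours cannot be told apart. How reads of near-identical copies were counted is not stated either.

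A triplet lay on Cz14. In its IDs of 1494, 789 and 336 bases, control replicate 1 was the highest control and control replicate 2 the lowest, and levofloxacin replicate 2 was the lowest of its group. The first had 39.9, 28.4 and 31.2 CPM in controls and 97.4, 64.0 and 101 CPM with levofloxacin. The second had 12.5, 8.09 and 10.3 CPM in controls and 31.5, 19.8 and 29.5 CPM with levofloxacin. The third had 7.78, 5.13 and 5.39 CPM in controls and 19, 13.4 and 19.5 CPM with levofloxacin. Mean CPM was 2.62 to 2.84 times higher with levofloxacin in these 3 IDs. The ID before them had means of 161 and 180 CPM, and the ID after them 0.136 and 0.170 CPM, in controls and with levofloxacin. A pair on Cz03, of 1254 and 1146 bases, went with control replicate 2 instead. Its first ID had 5.32, 44.5 and 17.5 CPM in controls and 91.4, 93.1 and 102 CPM with levofloxacin. Its second had 4.06, 37.5 and 19.7 CPM in controls and 94.2, 90.9 and 110 CPM with levofloxacin. In both, control replicate 1 was lowest, control replicate 3 between and control replicate 2 highest.

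The IDs next to the 170 that were not among them leaned the same way. Of 294 such neighbours tested, edgeR called 50 higher (17%) and 29 lower (9.86%), where the background over 13019 nuclear IDs outside the set was 8.58% higher and 12.2% lower. The neighbours' median log2 fold change was 0.10, against -0.01. At 2 places from a member 9.84% were called higher, and at 3, 5 and 10 places 8.49%, 7.91% and 10.1%. From 2 places on, the shares lay on both sides of the background. The libraries are the ones that chose the 170 IDs, and how far neighbours share reads was not tested. The share depended on the libraries. Without levofloxacin replicate 1, 2 or 3 it was 0%, 5.07% and 0.339% of neighbours. The background in these fits was 0.107%, 2.08% and 0.114% of tested nuclear IDs outside the set. Without control replicate 1, 2 or 3 the neighbours stood at 20%, 21.4% and 6.42%, against 10.9%, 12.9% and 2.5%.

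**Figure D4:**
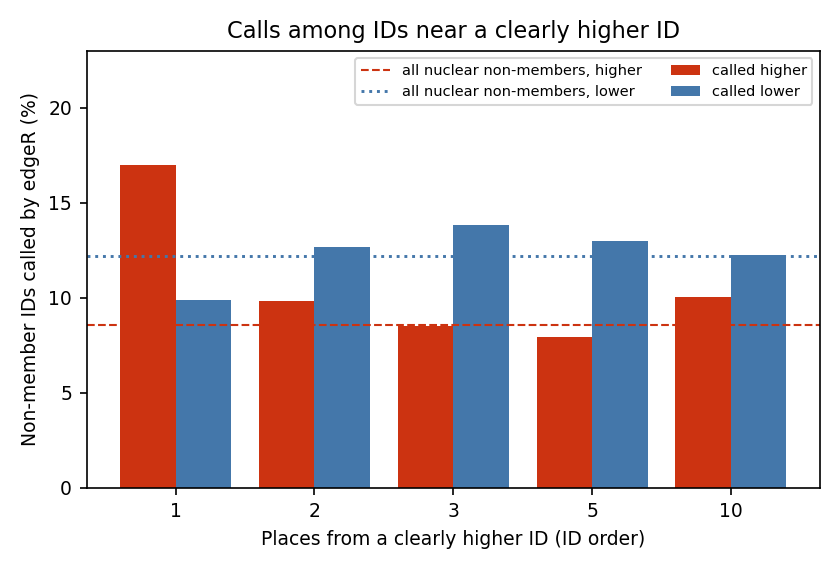
Bars give the percent of tested nuclear IDs outside the set that edgeR called higher (red) or lower (blue), by their distance in ID order from one of the 170 IDs; lines give the same percents over all nuclear IDs outside the set. The red bar is above its line at 1 place (17% against 8.58%) and near it from 2 places on.

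The coding sequences of the 170 IDs had a median length of 892.5 bases (quartiles 512 and 1321, from 201 to 5649). The median was 1254 bases (747 and 2058) for comparable IDs. Among the 266 IDs clearly lower with levofloxacin it was 1524 bases (1012 and 2607). A coding length under 600 bases was found in 52 of the 170 (30.6%), in 17.3% of comparable IDs and in 9.02% of the clearly lower IDs. Members and comparable IDs were also set side by side at 3 levels of reads with levofloxacin, the group in which the rule makes the members high. Between 10 and 30 CPM the medians were 615 bases for 59 members and 981 bases for comparable IDs, between 30 and 100 CPM they were 942 bases for 61 and 1386 bases, and at 100 CPM and over they were 1141.5 bases for 50 and 1674 bases. Among the 170 themselves, the median was 814.5 bases for the 58 IDs with a gap of 1.5 to 1.6 times, 1014 bases for the 31 at 1.6 to 1.7 times, 729 bases for the 49 at 1.7 to 2 times and 862.5 bases for the 32 at 2 times or more. It thus had no steady course with the gap. The longest, of 5649 bases on Cz10, had 33.7, 54.5 and 56.2 CPM in controls and 99.1, 92.4 and 120 CPM with levofloxacin. The shortest, of 201 bases on Cz06, had 3.31, 5.85 and 5.44 CPM in controls and 13.7, 10.2 and 14.7 CPM with levofloxacin. The sets were not matched in control level: members and comparable IDs were filtered on levofloxacin libraries, and the clearly lower IDs on controls. The members' mean CPM had a median of 18.7 in controls and 51.4 with levofloxacin. Among comparable IDs coding length rose with level, so the order of the 3 sets in length is not read as a result. RNA integrity and fragment sizes of the libraries are not given in the labels, and their part in the lengths was not tested.

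**Figure D5:**
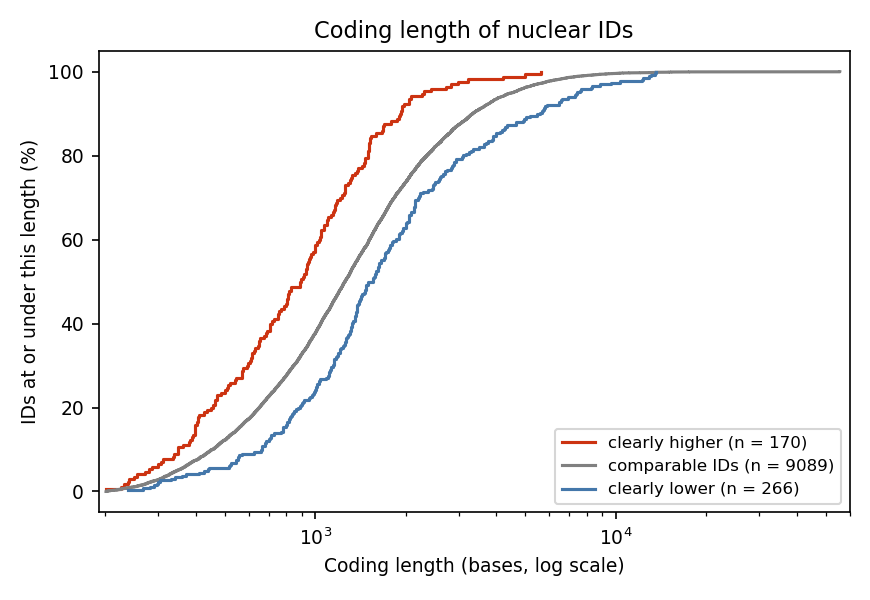
Cumulative percent of IDs by coding length in bases (log scale), for the 170 clearly higher, the 9089 comparable and the 266 clearly lower IDs. The curve of the clearly higher IDs lies to the left (median 892.5 bases), that of the comparable IDs in the middle (1254) and that of the clearly lower IDs to the right (1524). The level filter used controls for the clearly lower IDs and levofloxacin libraries for the others.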

How the data were processed

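The authors deposited a table of whole-number read counts per gene ID and a table of FPKM values, 1 column per library, with 3 control and 3 levofloxacin libraries. The submitters' processing notes name HISAT2 (2.0.6) and HTSeq (0.6.1). Genome build, annotation and strand setting were not given in the sources used here. Each deposited FPKM value equalled its count divided by 1 length per ID and 1 total per library, to within 1.57e-12 percent. The lengths recovered this way are called coding lengths because 99.7% of 15199 are multiples of 3.

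CPM was computed from the counts and column totals, and the rule was applied to it. All 15364 IDs entered edgeR 4.0.16 in R 4.3.3 (filterByExpr, TMM, quasi-likelihood F test, Benjamini-Hochberg over 14236 tested IDs, threshold 0.05). The SE of a log2 fold change is its size over the square root of the F statistic. The fits were tested on simulated counts. Neighbours are IDs next to each other in ID order under 1 prefix. Alternatives were RLE and library totals, no filter, DESeq2 1.42.0, limma-voom 3.58.1, limma on log2(FPKM + 1), a replicate block, other limits of the rule, and leaving out each library. Libraries of a group differed by 29.7 to 189 times counting noise over the members (chi-square per degree of freedom), so none was counted as a repeated sequencing of another. These values cannot tell whether the libraries came from separate cultures. The printed IDs are the member with the widest gap and the member with the highest mean CPM. Members and lists were chosen with earlier results of these data known. Gene descriptions, sequences and photoautotrophic cultures were not analysed here.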

Additional observations from a re-analysis of the deposited data

How the results depend on the processing

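The number of IDs meeting the rule was 176 on TMM-scaled library sizes (148 of them among the 170) and 180 with DESeq2 size factors (147 shared). It was 604 at the lower ratio tried, 32 at a ratio of 2 and 303 with no filter on low values. Leaving out each library gave 186 to 664, the highest without control replicate 2 and 315 without levofloxacin replicate 2. A library left out can only loosen the ratio, so IDs could be lost through the level alone, and 0 to 3 members were. Of all tested IDs 102 to 2048 were called higher with a library left out, and of the 170 members 70 to 170, the lowest without levofloxacin replicate 3 (70) or 1 (75). Over the same fits the members' median log2 fold change was 1.15 to 1.31 and the ratio of their summed CPM 2.11 to 2.43. The fold change of Cz04g39120 ran from 3.82 to 4.19 and that of Cz05g37140 from 0.66 to 0.90. Cz04g39120 was called higher in each of these fits. Cz05g37140 was not called without control replicate 3 or without any 1 levofloxacin library, where 102 to 549 of all tested IDs were called. The control median of the coefficient of variation was 14.4% to 25.4% with a control left out and 19.5% on TMM-scaled sizes. The levofloxacin median was 4.79% to 8.08%, the lowest without replicate 2. Control replicate 2 was the highest control in 57.1% of members on TMM-scaled sizes and in 87.5% at a ratio of 2. Set against all nuclear IDs with any count (median 1074 bases), the ratio of median coding lengths was 0.831 in place of 0.712. Neighbours called higher were 9.84% at 2 places and 0% to 21.4% with a library left out. In the left-out fits the background was 0.107% to 12.9% of tested nuclear IDs outside the set. With DESeq2 on all libraries 20.4% of neighbours were called higher, against 12.2%. With the replicate block 170 members and 1358 of all tested IDs were called higher. Libraries of the same number correlated at 0.156, 0.053 and 0.041 in their deviations, with no correlations between different numbers set beside them. The numbers were not taken as pairs because the labels do not say that they pair samples. The split by level for coding length and the left-out libraries for neighbours were added after seeing the data. With 3 libraries a group, the spread of the controls limits precision.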
